A study of Mus musculus with 30 samples.

Results

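The genes of antigen processing and presentation were followed in mouse bone marrow derived macrophages through 30 messenger RNA libraries in 10 groups of 3. The set holds 35 genes chosen by symbol, among 43629 gene IDs in the count tables, and each of the 35 matched an ID. Class II presentation was represented by 12 genes (H2-Aa, H2-Ab1, H2-Eb1, H2-DMa, H2-DMb1, H2-DMb2, H2-Oa, Cd74, Ciita, Rfx5, Rfxap and Rfxank). Class I and class I-like presentation was represented by 12 genes (H2-K1, H2-D1, H2-Q4, H2-Q6, H2-Q7, H2-M3, H2-T22, H2-T23, B2m, Nlrc5, Cd1d1 and Mr1), and antigen processing and peptide loading by 11 (Tap1, Tap2, Tapbp, Psmb8, Psmb9, Psmb10, Erap1, Calr, Canx, Pdia3 and Ifi30).

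All cells came from C57BL/6 bone marrow, were grown in 20 ng/mL of the macrophage growth factor CSF-1 to day 7 and kept CSF-1 during stimulation. Wild type macrophages received IL-4 at 20 ng/mL with prostaglandin E2 (PGE2) at 10 µM, valinomycin at 10 nM together with IL-4, only IL-4, or no stimulus. In a separate experiment, macrophages exposed to lentivirus carrying a short hairpin RNA against the ETS family transcription factor Etv1 (Etv1 shRNA) or a control hairpin (control shRNA) received IL-4 with PGE2, IL-4 alone, or no stimulus, at those concentrations. The stimulation time, the number of mice and the sequence and number of hairpins are not given in the sources used here. An off-target effect of a hairpin cannot be told apart from an effect of lower Etv1. The libraries were made from the RNA of whole cultures, in which fewer cells of a type and less RNA per cell cannot be told apart.

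Macrophages display peptides on MHC class II to CD4 T cells and on class I to CD8 T cells. Class II transcription depends on the transactivator Ciita, which is recruited by the RFX complex (Rfx5, Rfxap and Rfxank) to conserved promoter boxes, and the invariant chain Cd74 occupies the class II groove until H2-DM exchanges it for peptide in endosomes. Class I heavy chains pair with B2m and take up peptides that are cut by the proteasome, carried into the endoplasmic reticulum by Tap1 and Tap2, and trimmed and loaded there. IL-4 is the classic inducer of the alternatively activated state of macrophages. PGE2 signals in part through receptors that raise cyclic AMP, and valinomycin carries potassium across membranes and so lowers the potential of mitochondria.

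Promoter stretches are shown for genes whose messages differed in behaviour although their upstream letters are alike. RefSeq held promoters for 28 of the 35 genes on GRCm38.p6, read here over the 250 bases before the annotated start. In the first set, of class II genes and B2m, capitals mark the Y box letters GATTGG, the X box letters GATGATGCT and the cyclic AMP response element letters TGACGTCA, where they occur. H2-Aa lies at chr17:34287857-34287936 on the minus strand, H2-Eb1 at chr17:34305743-34305822, H2-DMb1 at chr17:34153065-34153144, H2-DMb2 at chr17:34145094-34145173 and B2m at chr2:122147569-122147648, all on the plus strand except H2-Aa.
H2-Aa: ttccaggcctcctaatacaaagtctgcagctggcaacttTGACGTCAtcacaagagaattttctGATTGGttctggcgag
H2-Eb1: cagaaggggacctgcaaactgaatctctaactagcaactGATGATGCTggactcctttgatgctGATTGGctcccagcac
H2-DMb1: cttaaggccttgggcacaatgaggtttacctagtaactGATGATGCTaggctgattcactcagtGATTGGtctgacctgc
H2-DMb2: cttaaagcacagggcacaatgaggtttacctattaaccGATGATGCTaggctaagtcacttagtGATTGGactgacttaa
B2m: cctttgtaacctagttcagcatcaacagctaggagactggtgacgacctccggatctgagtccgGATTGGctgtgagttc

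The second set holds class I heavy chain genes, with the kappa B letters GGGGATTCC and the letters TGATGAC in capitals where they occur. The stretches lie at chr17:34000354-34000468 on the minus strand for H2-K1, and on the plus strand at chr17:35262913-35263027 for H2-D1, chr17:35379433-35379547 for H2-Q4, chr17:35424667-35424780 for H2-Q6 and chr17:35439012-35439124 for H2-Q7.
H2-K1: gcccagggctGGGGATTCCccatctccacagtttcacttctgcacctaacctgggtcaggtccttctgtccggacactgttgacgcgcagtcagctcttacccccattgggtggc
H2-D1: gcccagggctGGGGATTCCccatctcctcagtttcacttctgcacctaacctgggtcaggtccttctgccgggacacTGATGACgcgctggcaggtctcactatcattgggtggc
H2-Q4: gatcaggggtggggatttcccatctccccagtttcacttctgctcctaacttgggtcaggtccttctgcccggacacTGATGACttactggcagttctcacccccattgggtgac
H2-Q6: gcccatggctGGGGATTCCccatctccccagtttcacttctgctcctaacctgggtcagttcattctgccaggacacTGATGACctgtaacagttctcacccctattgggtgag
H2-Q7: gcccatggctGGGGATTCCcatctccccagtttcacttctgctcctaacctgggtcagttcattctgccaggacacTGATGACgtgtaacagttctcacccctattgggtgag

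Searched on both strands, GATTGG occurred in a promoter of 20 of the 28 genes (71.4%) and in 14.6% of all 32851 promoters of that length. The 28 were counted by gene, with a match in any listed promoter, and the whole table by promoter. The shares are therefore in unlike units, here and below. GATGATGCT occurred in 73 promoters of the whole table (0.222%), and in 3 of the 28 genes (H2-DMb1, H2-DMb2 and H2-Eb1). TGACGTCA occurred in 1.55% of all promoters and in H2-Aa alone among the 28, where it overlaps a match to TGATGAC on the other strand. GGGGATTCC occurred in 70 promoters of the table (0.213%), among them H2-D1, H2-K1, H2-Q6 and H2-Q7. The interferon-stimulated element letters TTTCNNTTT occurred in 9.37% of all promoters and in 5 of the 28 (B2m, H2-DMa, H2-T22, H2-T23 and Mr1). The stretches printed above for H2-K1, H2-D1, H2-Q4, H2-Q6 and H2-Q7 each read tttcacttc. That is a near match, differing in the last letter, and was not counted. TGATGAC occurred in 2.69% of all promoters and in 7 of the 28. A match describes the letters in this window and not a bound site.

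Wild type libraries held 10514496 to 13414293 counts and shRNA libraries 6924973 to 30473040. Etv1, the hairpin target, is given in CPM (reads scaled to a common library size within each experiment). Etv1 had 9.08, 7.72 and 9.86 CPM in Etv1 shRNA cells, against 29.1, 21.8 and 33.1 CPM in control shRNA cells in the presence of IL-4 and PGE2. With IL-4, Etv1 had 6.0, 4.97 and 5.02 CPM in Etv1 shRNA cells, against 15.3, 11.5 and 14.9 CPM in control shRNA cells. Without a stimulus, Etv1 had 4.84, 2.51 and 2.97 CPM in Etv1 shRNA cells, against 10.9, 10.4 and 10.5 CPM in control shRNA cells. All Etv1 shRNA libraries were below the control shRNA libraries of their condition (log2 fold change -1.67 ± 0.16 SE, edgeR adjusted p = 5.4e-08, -1.39 ± 0.19 and -1.69 ± 0.20 in that order). Macrophage markers were abundant in every library: the 10 of them summed to 9257 to 10942 CPM in Etv1 shRNA cells, 16797 to 22481 CPM in control shRNA cells and 15405 to 20107 CPM in wild type cells. The 8 B cell markers summed to 14.9 to 26.9 CPM in wild type and 0.538 to 4.76 CPM in shRNA libraries, and the 8 neutrophil markers to 178 to 294 and 0.0781 to 7.04 CPM. The 8 T and NK cell markers reached at most 10.8 CPM and the 7 stromal markers at most 8.21 CPM in sum. Control shRNA replicate 2 stood apart: the sum of 27 interferon response genes was highest there in each condition, and its H2-Q6 and H2-Q7 were lowest. Results that rest on it are also given without it.

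Per kilobase of exon, B2m was the most abundant of the 35 messages in both experiments (1839.3 CPM per kb in wild type and 1971.1 in shRNA libraries, as means over libraries), followed by the classical heavy chain gene H2-D1. Ciita and H2-Oa, a chain of the class II editor H2-DO, were the lowest, and H2-Oa had 2 to 6 counts per wild type group and 3 to 17 per shRNA group, too few to be tested. Tests therefore covered 34 genes. Cd74 was 12th of 35 in the shRNA experiment and 7th in the wild type experiment, and H2-Ab1 27th and 16th, while the RFX subunit Rfx5 was 24th and 29th. The experiments were scaled separately, so these are ranks and not levels.

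Throughout, a change is a log2 fold change ± its standard error (SE) from edgeR, a gene rose or fell where its Benjamini-Hochberg adjusted p over all genes tested was under 0.05, and values are listed for replicates 1 to 3. IL-4 against no stimulus in wild type cells raised 18 of 34 genes and lowered 4, when 24% of the 12824 genes tested rose and 22.4% fell. Among 11 tested class II genes 6 rose and 1 fell, with a median change of 0.37 against 0.01 over all genes tested. Ciita, the class II transactivator, had 3.83, 3.52 and 2.63 CPM with IL-4 and PGE2, 4.82, 6.95 and 5.21 CPM with IL-4 and valinomycin, 8.63, 7.25 and 7.81 CPM with IL-4 and 1.53, 1.77 and 1.54 CPM without a stimulus. Every IL-4 library was above every unstimulated library, and the change was 2.29 ± 0.20 (edgeR adjusted p = 7.23e-10).

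The H2-DM genes, which encode the peptide exchanger of class II loading, rose with IL-4 as well. H2-DMa, its alpha chain, had 30.5, 32.3 and 28 CPM with IL-4 and PGE2, 49.1, 51.2 and 47 CPM with IL-4 and valinomycin, 72.1, 70.8 and 67 CPM with IL-4 and 27.2, 25.2 and 23.3 CPM without a stimulus. All libraries with IL-4 exceeded all those without a stimulus, with log2 fold change 1.47 ± 0.07 SE, edgeR adjusted p = 8.08e-15. H2-DMb1, a beta chain, had 42.6, 37.4 and 41.3 CPM with IL-4 and PGE2, 50.3, 50.2 and 48.1 CPM with IL-4 and valinomycin, 54.9, 57.6 and 55 CPM with IL-4 and 32.5, 30.2 and 31 CPM without a stimulus. It separated the groups in the same way (log2 fold change 0.84 ± 0.06 SE, edgeR adjusted p = 7.27e-11). H2-DMb2, the second beta chain, had 5.06, 4.12 and 2.24 CPM with IL-4 and PGE2, 2.75, 3.17 and 2.4 CPM with IL-4 and valinomycin, 3.31, 3.59 and 2.42 CPM with IL-4 and 1.19, 2.05 and 1.61 CPM without a stimulus and rose by 0.94 ± 0.28 (edgeR adjusted p = 0.00867, and 0.051 without unstimulated replicate 1). H2-DMb1 and H2-DMb2 share 22.7% and 25.9% of their 50-base stretches with other annotated transcripts, so their counts depend on how shared reads were assigned.

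The genes of the class II molecule itself changed less. Cd74, the invariant chain, had 275, 238 and 295 CPM with IL-4 and PGE2, 267, 236 and 275 CPM with IL-4 and valinomycin, 278, 259.7 and 317 CPM with IL-4 and 215, 206 and 212 CPM without a stimulus. All IL-4 libraries were above the unstimulated ones (log2 fold change 0.43 ± 0.08 SE, edgeR adjusted p = 0.000776). H2-Ab1, the beta chain of I-A, had 59.5, 52.1 and 71.8 CPM with IL-4 and PGE2, 60.3, 51.2 and 63.7 CPM with IL-4 and valinomycin, 55.5, 58 and 69.8 CPM with IL-4 and 45.5, 46.7 and 49.4 CPM without a stimulus. It also rose (log2 fold change 0.37 ± 0.12 SE, edgeR adjusted p = 0.0246), with adjusted p values up to 0.0776 when unstimulated replicate 1 or 2 or IL-4 replicate 3 was left out. H2-Aa, the alpha chain of I-A, had 74.6, 72.4 and 101 CPM with IL-4 and PGE2, 82.5, 77.7 and 92 CPM with IL-4 and valinomycin, 76.6, 73.7 and 95 CPM with IL-4 and 77.2, 77.9 and 78.9 CPM without a stimulus, and these groups overlapped (log2 fold change 0.07 ± 0.13 SE, edgeR adjusted p = 0.711). H2-Eb1, the beta chain of I-E, whose alpha chain C57BL/6 mice do not make, changed by 0.22 ± 0.15 and did not pass the test (edgeR adjusted p = 0.266). It passed with the replicate number added to the model as a block (0.22, edgeR adjusted p = 0.0335). In each group with IL-4, replicate 3 had the highest H2-Aa, H2-Ab1 and H2-Eb1.

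**Figure D1:**
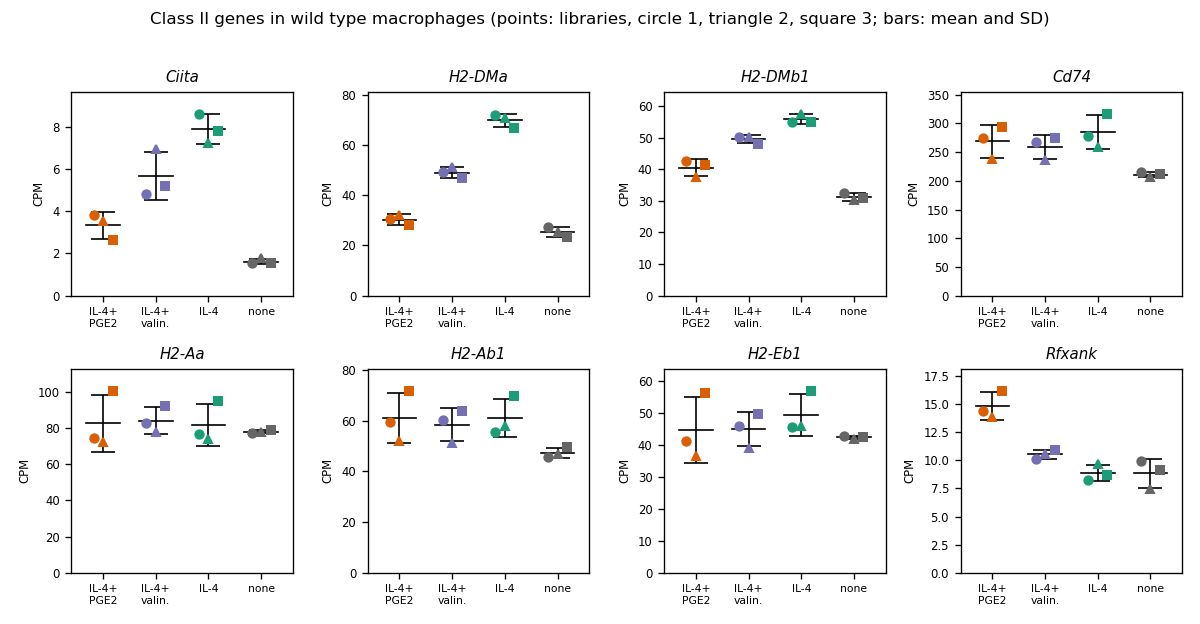
CPM of class II genes in each wild type library, by group, with bars for the mean and SD of 3 libraries. Ciita and H2-DMa are highest with IL-4 and lower with PGE2 added, while the groups of H2-Aa, H2-Ab1 and Cd74 with IL-4, with or without PGE2 or valinomycin, overlap.

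With PGE2 added to IL-4, 4 of 34 genes rose and 13 fell in wild type cells, when 29.9% and 29.5% of all genes tested rose and fell, and with valinomycin added 3 rose and 10 fell, when 19.4% and 18.9% did. Ciita, H2-DMa and H2-DMb1 fell with either agent. With PGE2, Ciita changed by -1.23 ± 0.17 (edgeR adjusted p = 1.24e-06), H2-DMa by -1.21 ± 0.07 (2.44e-13) and H2-DMb1 by -0.46 ± 0.06 (6.36e-07). With valinomycin the changes were -0.49 ± 0.15 for Ciita (edgeR adjusted p = 0.0134), -0.51 ± 0.06 for H2-DMa (7.8e-07) and -0.17 ± 0.06 for H2-DMb1 (0.0229). For all 3 genes, each library with either agent was below each IL-4 library. The valinomycin call of Ciita was lost without IL-4 replicate 1 or valinomycin replicate 1 or 3 (adjusted p up to 0.0893), and that of H2-DMb1 without IL-4 replicate 2 or any valinomycin library (up to 0.109).

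The class II chains and Cd74 did not follow. H2-Aa, H2-Ab1, H2-Eb1 and Cd74 together summed to 450.5, 399 and 523 CPM with IL-4 and PGE2, 456, 404 and 481 CPM with IL-4 and valinomycin, 455, 437 and 539 CPM with IL-4 and 380.1, 372 and 382 CPM without a stimulus. The groups with IL-4 overlapped, and none of the 4 genes passed the test with PGE2 or valinomycin. With the replicate number added to the model as a block, Cd74 passed with valinomycin (-0.13, edgeR adjusted p = 0.0314). Their changes with PGE2 were -0.08 ± 0.08 for Cd74, -0.00 ± 0.12 for H2-Ab1, 0.01 ± 0.13 for H2-Aa and -0.15 ± 0.15 for H2-Eb1 (edgeR adjusted p from 0.408 to 0.975). The X and Y box letters printed above are shared by H2-DMb1, which fell, and H2-Eb1, which did not pass the test.

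RFX subunits moved the other way with PGE2. Rfxank, the ankyrin repeat subunit, had 14.4, 13.9 and 16.2 CPM with IL-4 and PGE2, 10.1, 10.6 and 10.9 CPM with IL-4 and valinomycin, 8.28, 9.65 and 8.67 CPM with IL-4 and 9.96, 7.45 and 9.17 CPM without a stimulus. Every library with PGE2 was above every other wild type library (log2 fold change 0.74 ± 0.11 SE, edgeR adjusted p = 6.27e-06). Rfxap had 17.7, 16 and 18 CPM with IL-4 and PGE2, 11.2, 10.5 and 9.78 CPM with IL-4 and valinomycin, 9.15, 13.4 and 10.5 CPM with IL-4 and 17, 15.6 and 14 CPM without a stimulus. The PGE2 libraries were above those with IL-4 and overlapped the unstimulated ones, with log2 fold change 0.64 ± 0.12 SE, edgeR adjusted p = 5.98e-05 for PGE2 and log2 fold change -0.49 ± 0.12 SE, edgeR adjusted p = 0.00167 for IL-4. Rfx5, the DNA binding subunit, stayed between 11.0 and 14.9 CPM in all 12 wild type libraries and passed no test there. Of the 50-base stretches of Rfxank, 31.0% are shared with other annotated transcripts.

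Tested directly, PGE2 against valinomycin gave 5 of 34 genes higher and 13 lower, when 31.7% and 31.5% of all genes tested were. Ciita (-0.74 ± 0.18), H2-DMa (-0.69 ± 0.07) and H2-DMb1 (-0.29 ± 0.06) were lower with PGE2, while Rfxank (0.49 ± 0.11) and Rfxap (0.71 ± 0.12) were higher, all with edgeR adjusted p of at most 0.000957. Among the processing genes Psmb10 (-0.97 ± 0.06), Psmb8 (-0.36 ± 0.06), Erap1 (-0.41 ± 0.06), Ifi30 (-0.54 ± 0.06) and Canx (-0.21 ± 0.05) were lower and Calr (0.40 ± 0.05) and Pdia3 (0.25 ± 0.05) higher with PGE2, and of class I H2-T22 was higher (0.20 ± 0.06), a call lost without PGE2 replicate 2 (adjusted p = 0.0727). Against no stimulus, IL-4 with PGE2 left 13 genes higher and 7 lower, when 30.1% and 28.6% of all genes tested were. In class II, 7 of 11 were higher. Ciita was still above the unstimulated level by 1.06 ± 0.23 (edgeR adjusted p = 0.000368) and H2-DMa by 0.27 ± 0.08 (0.00407). Single libraries took 5 of the 20 calls: H2-Ab1 (adjusted p up to 0.0648, without unstimulated replicate 1 or 2 or PGE2 replicate 1 or 3), Cd1d1 (up to 0.124, without unstimulated replicate 2 or 3 or PGE2 replicate 1 or 3), Ifi30 (up to 0.105, without unstimulated replicate 1 or 2 or PGE2 replicate 3), Pdia3 (up to 0.115, without replicate 1 or 2 of either group) and Tap1 (up to 0.0597, without PGE2 replicate 2).

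Dendritic cells also express class II, and a dendritic cell marker sum moved with the stimuli. The 12 markers summed to 319, 392 and 340.5 CPM with IL-4 and PGE2, 715, 829.6 and 722 CPM with IL-4 and valinomycin, 727, 807 and 685 CPM with IL-4 and 397, 397 and 357 CPM without a stimulus. Most of each sum was Itgax, which macrophages also express, and 5 of the 12 were abundant enough to test. With IL-4, 4 of these 5 rose and 0 fell (median change 1.90), when 24% and 22.4% of all genes tested did. With PGE2 added 2 rose and 3 fell, when 29.9% and 29.5% did. Valinomycin raised 0 and lowered 1, when 19.4% and 18.9% of all genes rose and fell. Xcr1 and Clec9a, which define a dendritic cell subset, reached at most 0.429 and 0.341 CPM in wild type libraries. The part of such cells in the class II results was not tested.

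Per kilobase of exon, B2m, H2-D1 and H2-K1 of class I were more abundant than every class II gene, and they changed little in wild type cells. With IL-4, 5 of 12 class I genes rose and 3 fell in wild type cells, when 24% and 22.4% of all genes tested did. The median change was 0.04, with 6 changes positive and 6 negative. B2m, the light chain of class I, had 1498, 1541 and 1626 CPM with IL-4 and PGE2, 1538, 1571 and 1597 CPM with IL-4 and valinomycin, 1508, 1589.9 and 1616 CPM with IL-4 and 1639, 1619 and 1637 CPM without a stimulus. Its groups with IL-4 overlapped, all 3 IL-4 libraries were slightly below the unstimulated ones, and it passed no wild type test (log2 fold change -0.05 ± 0.04 SE, edgeR adjusted p = 0.336, for IL-4 against no stimulus). H2-K1, a classical heavy chain, had 902, 911 and 943 CPM with IL-4 and PGE2, 903, 886 and 902 CPM with IL-4 and valinomycin, 842, 928 and 892 CPM with IL-4 and 819.8, 847 and 779 CPM without a stimulus. The IL-4 change was small (log2 fold change 0.12 ± 0.05 SE, edgeR adjusted p = 0.0308) and its adjusted p reached 0.163 when unstimulated replicate 1 or 3 or IL-4 replicate 2 or 3 was left out. H2-D1 stayed between 1682.3 and 1994.0 CPM in the 12 wild type libraries and passed no test there.

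Nlrc5, the class I transactivator, fell with IL-4 and again with PGE2. It had 19.6, 15.8 and 17.6 CPM with IL-4 and PGE2, 27.8, 25.8 and 25.4 CPM with IL-4 and valinomycin, 25.3, 30.7 and 27.7 CPM with IL-4 and 43.4, 44.1 and 40.7 CPM without a stimulus. All libraries with IL-4 were below the unstimulated libraries (log2 fold change -0.61 ± 0.08 SE, edgeR adjusted p = 6.34e-07), and all with PGE2 were below those with IL-4 alone (log2 fold change -0.66 ± 0.09 SE, edgeR adjusted p = 9.08e-07). The PGE2 group ended -1.27 ± 0.08 from the unstimulated level (edgeR adjusted p = 3.56e-12). Valinomycin left Nlrc5 at -0.08 ± 0.08 from IL-4 (edgeR adjusted p = 0.455). Over the same groups the 27 interferon response genes summed to 1103, 1024 and 1056 CPM with IL-4 and PGE2, 724, 714 and 695 CPM with IL-4 and valinomycin, 754, 777 and 819 CPM with IL-4 and 969, 1017 and 1018 CPM without a stimulus. This sum was lower with IL-4 alone and higher again with PGE2, but single genes did not all follow the sum. Comparing IL-4 with PGE2 against no stimulus, 6 of the 27 were higher and 16 lower (median change -0.34). Of all genes tested, 30.1% were higher and 28.6% lower there. The part of the interferon response genes in the Nlrc5 result was not tested.

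The non-classical genes differed among themselves. H2-T23, the Qa-1 heavy chain, had 182, 186 and 197 CPM with IL-4 and PGE2, 190.3, 206 and 194 CPM with IL-4 and valinomycin, 189, 221 and 197 CPM with IL-4 and 156, 164 and 157 CPM without a stimulus, and rose with IL-4 (log2 fold change 0.35 ± 0.05 SE, edgeR adjusted p = 1.06e-05). Mr1, which presents vitamin B metabolites to MAIT cells, had 13.6, 13.6 and 15.4 CPM with IL-4 and PGE2, 14.1, 17.2 and 15.5 CPM with IL-4 and valinomycin, 11.2, 14.6 and 12.2 CPM with IL-4 and 18.6, 19.6 and 18.3 CPM without a stimulus, and fell with IL-4 (log2 fold change -0.57 ± 0.10 SE, edgeR adjusted p = 7.65e-05). Cd1d1, which presents lipids to NKT cells, had 3.14, 4.8 and 3.5 CPM with IL-4 and PGE2, 3.52, 4.63 and 3.69 CPM with IL-4 and valinomycin, 2.88, 3.83 and 3.98 CPM with IL-4 and 5.02, 5.68 and 5.43 CPM without a stimulus. It fell with IL-4 as well (log2 fold change -0.58 ± 0.18 SE, edgeR adjusted p = 0.00993), with edgeR adjusted p = 0.0556 without IL-4 replicate 1. For all 3 genes the IL-4 and unstimulated libraries did not overlap.

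H2-Q7, a Qa-2 heavy chain, was the class I gene that valinomycin moved most. It had 5.98, 6.95 and 8.07 CPM with IL-4 and PGE2, 15.8, 12.6 and 15 CPM with IL-4 and valinomycin, 8.46, 6.22 and 7.27 CPM with IL-4 and 4.17, 5.49 and 3.89 CPM without a stimulus. All valinomycin libraries were above all other wild type libraries (log2 fold change 0.99 ± 0.14 SE, edgeR adjusted p = 3.82e-06), and PGE2 against valinomycin gave -1.06 ± 0.14 (edgeR adjusted p = 4.93e-07). H2-Q4, a related heavy chain, had 53.8, 62.5 and 54.8 CPM with IL-4 and PGE2, 87.3, 86.3 and 93.6 CPM with IL-4 and valinomycin, 58.9, 71.3 and 66.5 CPM with IL-4 and 59.8, 59.6 and 54.3 CPM without a stimulus, and rose with valinomycin (log2 fold change 0.44 ± 0.07 SE, edgeR adjusted p = 1.78e-05). H2-Q4 (0.18 ± 0.07) and H2-T22 (0.16 ± 0.06) also rose a little with IL-4, but leaving out unstimulated replicate 3 or IL-4 replicate 2 or 3 took the H2-Q4 call, and unstimulated replicate 1 or 2 or IL-4 replicate 2 or 3 the H2-T22 call (edgeR adjusted p up to 0.2 and 0.165). H2-T22 fell with valinomycin (log2 fold change -0.26 ± 0.06 SE, edgeR adjusted p = 0.0026), and Mr1 rose (log2 fold change 0.30 ± 0.11 SE, edgeR adjusted p = 0.0298) with adjusted p up to 0.136 without IL-4 replicate 1 or 3 or valinomycin replicate 2. Between 26.5% and 53.5% of the 50-base stretches of H2-Q7, H2-Q6, H2-Q4 and H2-T22 occur in other annotated transcripts, so reads could be split or dropped among these genes.

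With PGE2, class I genes other than Nlrc5 moved little in wild type cells. Of the 12, 3 fell, when 29.5% of all genes tested did, so this count lies near the share over all genes. By edgeR 0 rose, also at an unadjusted p under 0.05, and by DESeq2, when 29.9% of all genes tested rose by edgeR. H2-M3, which presents formylated peptides, had 25.8, 25.6 and 26.4 CPM with IL-4 and PGE2, 34.8, 31.9 and 30.8 CPM with IL-4 and valinomycin, 30.6, 34.2 and 32.2 CPM with IL-4 and 30.5, 37.6 and 37 CPM without a stimulus. The libraries with PGE2 were all below those with IL-4 (log2 fold change -0.32 ± 0.08 SE, edgeR adjusted p = 0.00167). H2-Q4 fell by 0.20 ± 0.07 on the log2 scale (edgeR adjusted p = 0.0163), and the call was lost without IL-4 replicate 2 or PGE2 replicate 1 or 3 (adjusted p up to 0.11).

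Among processing genes, 7 of 11 rose with IL-4 and the other 4 did not pass the test (median change 0.23). Of all genes tested, 24% rose and 22.4% fell with IL-4. With PGE2 added 2 processing genes rose and 7 fell (median change -0.24), when 29.9% and 29.5% of all genes tested did. Psmb10, a catalytic subunit of the immunoproteasome, had 60.4, 53.4 and 55.5 CPM with IL-4 and PGE2, 108, 113 and 111 CPM with IL-4 and valinomycin, 130.5, 147 and 135 CPM with IL-4 and 58, 60.8 and 55.7 CPM without a stimulus. Every IL-4 library was above every other wild type library, with a change of 1.24 ± 0.06 for IL-4 against no stimulus and -1.28 ± 0.06 for PGE2 (edgeR adjusted p = 6.82e-15 and 4.49e-15). The PGE2 group overlapped the unstimulated group (log2 fold change -0.04 ± 0.06 SE, edgeR adjusted p = 0.595).

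The other inducible subunits changed less. Psmb8 had 74.8, 78.2 and 72.5 CPM with IL-4 and PGE2, 96.6, 101 and 91.9 CPM with IL-4 and valinomycin, 111, 129.5 and 116 CPM with IL-4 and 100.0, 104 and 98.9 CPM without a stimulus. It rose with IL-4 (log2 fold change 0.24 ± 0.06 SE, edgeR adjusted p = 0.00118) and fell below the unstimulated libraries with PGE2 (log2 fold change -0.66 ± 0.06 SE, edgeR adjusted p = 7.4e-10). Psmb9 had 36.4, 36.5 and 35.4 CPM with IL-4 and PGE2, 31, 35.6 and 34.5 CPM with IL-4 and valinomycin, 40.1, 47.9 and 42.7 CPM with IL-4 and 30.7, 35.8 and 33.5 CPM without a stimulus. It rose by 0.39 ± 0.07 with IL-4 and changed by -0.27 ± 0.07 with PGE2 and -0.37 ± 0.07 with valinomycin (edgeR adjusted p of at most 0.00294). Valinomycin also lowered Psmb10 (-0.31 ± 0.05) and Psmb8 (-0.30 ± 0.06), with edgeR adjusted p of at most 0.000146. Tap1 and Psmb9 start 226 bases apart on opposite strands of chromosome 17, and Tap1 did not pass the test with IL-4 (log2 fold change 0.05 ± 0.06 SE, edgeR adjusted p = 0.501). In this experiment Tap1 had 59.7, 56.8 and 63.3 CPM with IL-4 and PGE2, 62.5, 62.8 and 60.4 CPM with IL-4 and valinomycin, 65.2, 74.2 and 71.8 CPM with IL-4 and 68.8, 68.3 and 67.1 CPM without a stimulus.

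Erap1, the aminopeptidase that trims class I peptides, had 79.6, 83.4 and 75.3 CPM with IL-4 and PGE2, 104, 109 and 103 CPM with IL-4 and valinomycin, 110.4, 98 and 94.9 CPM with IL-4 and 87.1, 83.7 and 77.8 CPM without a stimulus. It rose with IL-4 (log2 fold change 0.29 ± 0.06 SE, edgeR adjusted p = 0.000328) and fell with PGE2 (log2 fold change -0.35 ± 0.06 SE, edgeR adjusted p = 2.79e-05), and valinomycin did not move it past the test. Ifi30, the lysosomal thiol reductase that opens antigens for class II loading, had 183, 186 and 166 CPM with IL-4 and PGE2, 274, 269 and 237 CPM with IL-4 and valinomycin, 251, 266 and 226 CPM with IL-4 and 204, 207 and 195 CPM without a stimulus. The PGE2 libraries were the lowest of the experiment (log2 fold change -0.47 ± 0.06 SE, edgeR adjusted p = 1.55e-06). Tapbp, the tapasin that bridges class I to the peptide transporter, had 255, 255 and 254 CPM with IL-4 and PGE2, 257, 271 and 251 CPM with IL-4 and valinomycin, 279, 296 and 283 CPM with IL-4 and 237, 249.9 and 244 CPM without a stimulus, with changes of 0.23 ± 0.04 for IL-4 and -0.17 ± 0.04 for PGE2.

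Calr and Pdia3 of the loading complex were the 2 processing genes that rose with PGE2. Calr, the chaperone calreticulin, had 1175, 1139 and 1026 CPM with IL-4 and PGE2, 889.8, 836 and 798 CPM with IL-4 and valinomycin, 1022, 928 and 922 CPM with IL-4 and 903, 925 and 940.3 CPM without a stimulus. It rose with PGE2 (log2 fold change 0.22 ± 0.05 SE, edgeR adjusted p = 0.00129) and fell with valinomycin (log2 fold change -0.19 ± 0.05 SE, edgeR adjusted p = 0.0085). The valinomycin call had adjusted p up to 0.07 without IL-4 replicate 1 or valinomycin replicate 3. Pdia3, a disulfide isomerase of the same complex, rose by 0.16 ± 0.05 with PGE2 (edgeR adjusted p = 0.005). Canx, the chaperone calnexin, changed by -0.10 ± 0.05 and did not pass the test (edgeR adjusted p = 0.103). Of the 6 processing genes that fell with valinomycin, Tap1 and Tapbp also lost the call when a single library was left out (IL-4 replicate 2 or valinomycin replicate 3 for both, and valinomycin replicate 1 for Tapbp, with adjusted p up to 0.0692 and 0.096).

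**Figure D2:**
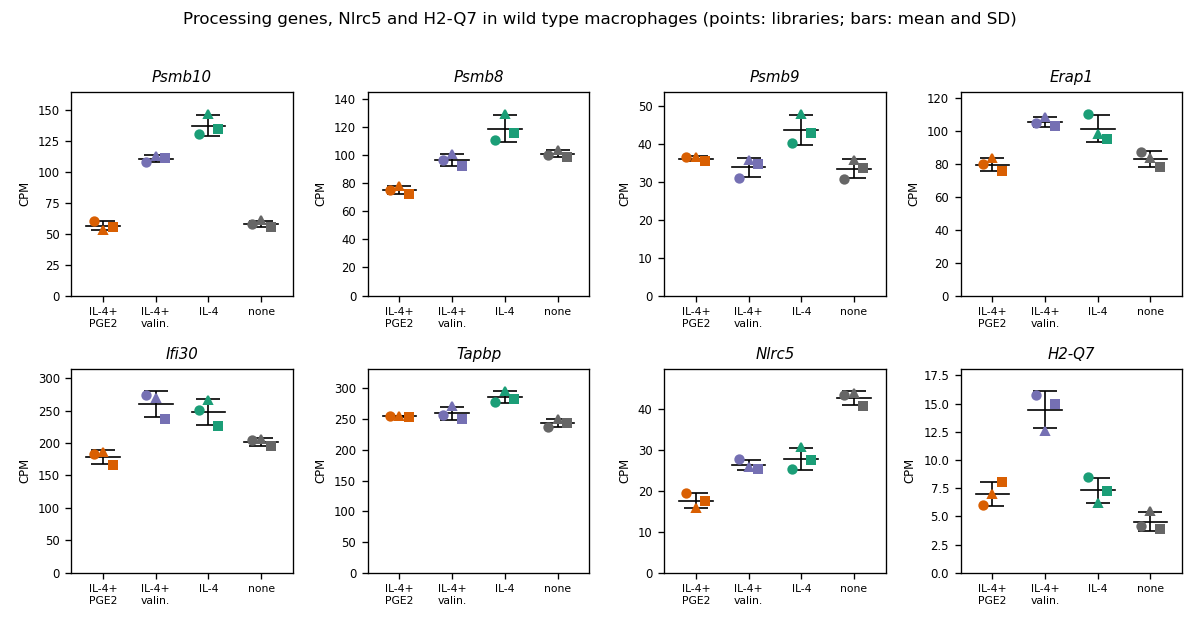
CPM of 6 processing genes and of the class I genes Nlrc5 and H2-Q7 in each wild type library, by group, with bars for the mean and SD of 3 libraries. Psmb10 is highest with IL-4 and lies among the unstimulated values with PGE2, Nlrc5 is lowest with PGE2, and H2-Q7 is highest with valinomycin.

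In shRNA cells the same comparisons were made within each hairpin. IL-4 raised 7 of 34 genes in Etv1 shRNA cells and lowered 0 by edgeR, when 10.9% and 7.16% of the 12382 genes tested rose and fell, and raised 8 and lowered 1 in control shRNA cells, when 17.2% and 17.1% did. For the 0, the count was also 0 at an unadjusted p under 0.05 and by DESeq2. Ciita had 0, 0.406 and 0.0865 CPM with IL-4 and PGE2, 1.03, 1.38 and 1.02 CPM with IL-4 and 0.134, 0.335 and 0.0781 CPM without a stimulus in Etv1 shRNA cells, from 5, 36 and 6 counts summed over each group. In control shRNA cells it had 0.244, 0.469 and 0.755 CPM with IL-4 and PGE2, 1.83, 5.53 and 3.16 CPM with IL-4 and 0.342, 0.245 and 0.204 CPM without a stimulus, from 27, 102 and 12 counts. Each IL-4 library was above each unstimulated library of its hairpin, with changes of 2.56 ± 0.72 in Etv1 shRNA and 3.54 ± 0.51 in control shRNA cells (edgeR adjusted p = 0.0156 and 1.36e-05). The call in Etv1 shRNA cells was lost without unstimulated replicate 3 or IL-4 replicate 2 (adjusted p up to 0.0886).

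H2-DMa repeated its wild type course under both hairpins. It had 5.13, 5.69 and 5.54 CPM with IL-4 and PGE2, 14.5, 15.3 and 15.3 CPM with IL-4 and 4.84, 4.86 and 5.47 CPM without a stimulus in Etv1 shRNA cells. H2-DMa in control shRNA cells was at 8.17, 9.85 and 8.84 CPM with IL-4 and PGE2, 25.3, 25.9 and 23.6 CPM with IL-4 and 7.87, 9.7 and 8.15 CPM without a stimulus. The IL-4 libraries were the highest under both hairpins, with IL-4 changes of 1.56 ± 0.11 in Etv1 shRNA and 1.55 ± 0.10 in control shRNA cells (edgeR adjusted p = 6.82e-09 and 2.63e-10). Cd74 had 28.5, 44.5 and 27.4 CPM with IL-4 and PGE2, 46.6, 70.6 and 46.3 CPM with IL-4 and 16, 27.6 and 10.3 CPM without a stimulus in Etv1 shRNA cells. Cd74 in control shRNA cells was at 60.2, 85.1 and 80.7 CPM with IL-4 and PGE2, 84.7, 125 and 111 CPM with IL-4 and 26.5, 44.2 and 50 CPM without a stimulus. It rose with IL-4 by 1.60 ± 0.37 in Etv1 shRNA and 1.43 ± 0.33 in control shRNA cells (edgeR adjusted p = 0.00807 and 0.00421). H2-Ab1 rose with IL-4 in control shRNA cells (log2 fold change 0.93 ± 0.27 SE, edgeR adjusted p = 0.0143) and lost the call without unstimulated replicate 1 or IL-4 replicate 3 (adjusted p up to 0.0762), or with control shRNA replicate 2 left out of every condition (0.125). In Etv1 shRNA cells its change was 0.43 ± 0.33 (edgeR adjusted p = 0.434). H2-DMb1 rose with IL-4 by 0.48 ± 0.10 in Etv1 shRNA and 0.59 ± 0.10 in control shRNA cells (edgeR adjusted p = 0.00155 and 0.000122), and Rfxap fell in control shRNA cells (log2 fold change -0.46 ± 0.11 SE, edgeR adjusted p = 0.00235).

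PGE2 on top of IL-4 raised 3 genes and lowered 6 in Etv1 shRNA cells, when 24.6% and 22.8% of all genes tested rose and fell, and raised 3 and lowered 11 in control shRNA cells, when 29.3% and 30.1% did. Ciita fell by 2.85 ± 0.74 on the log2 scale in Etv1 shRNA cells (edgeR adjusted p = 0.00358) and by 2.51 ± 0.44 in control shRNA cells (7.04e-05). H2-DMa changed by -1.46 ± 0.11 in Etv1 shRNA and -1.48 ± 0.10 in control shRNA cells (edgeR adjusted p = 3.17e-09 and 1.82e-10). Rfxank rose by 0.57 ± 0.12 in Etv1 shRNA and 0.84 ± 0.11 in control shRNA cells, and Rfxap by 0.58 ± 0.11 and 0.70 ± 0.11 in those cells, all with edgeR adjusted p of at most 0.000555. H2-Aa, H2-Ab1, H2-Eb1 and Cd74 did not pass the test with PGE2 under either hairpin. Changes of Cd74 were -0.71 ± 0.34 in Etv1 shRNA and -0.49 ± 0.32 in control shRNA cells (edgeR adjusted p = 0.106 and 0.203), and every PGE2 library was below every IL-4 library in Etv1 shRNA cells, while the groups overlapped in control shRNA cells.

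Dendritic cell markers moved with the stimuli in shRNA cells too. The 12 summed to 12.5, 17.4 and 12.4 CPM with IL-4 and PGE2, 44.6, 52 and 53.8 CPM with IL-4 and 16.1, 18.1 and 13.4 CPM without a stimulus in Etv1 shRNA cells. Their sums in control shRNA cells were 12.9, 20.8 and 14 CPM with IL-4 and PGE2, 127, 137 and 139 CPM with IL-4 and 13.1, 22 and 12.2 CPM without a stimulus. IL-4 libraries were the highest under both hairpins, and the PGE2 and unstimulated libraries overlapped. Of the 4 markers tested, Itgax and the transcription factors Batf3 and Zbtb46 rose with IL-4 under both hairpins, and Itgax and Batf3 fell with PGE2 under both. Siglech, a plasmacytoid dendritic cell receptor, was at 0 in every shRNA library, and Xcr1 and Clec9a reached at most 0.352 and 0.408 CPM. The part of these markers in the class II changes with IL-4 and PGE2 was not tested.

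Among processing genes, Psmb10, Psmb8 and Erap1 fell with PGE2 under both hairpins. Psmb10 had 49.8, 43.2 and 55.7 CPM with IL-4 and PGE2, 88.1, 85.7 and 101 CPM with IL-4 and 64.8, 64.5 and 72.6 CPM without a stimulus in Etv1 shRNA cells. Psmb10 in control shRNA cells was at 65.2, 56.3 and 62.1 CPM with IL-4 and PGE2, 134, 150.0 and 127 CPM with IL-4 and 64.2, 84.1 and 71.2 CPM without a stimulus. PGE2 libraries were below the IL-4 libraries under both hairpins (-0.88 ± 0.11 in Etv1 shRNA and -1.16 ± 0.10 in control shRNA cells), and in control shRNA cells they overlapped the unstimulated ones. IL-4 alone raised Psmb10 by 0.44 ± 0.10 in Etv1 shRNA and 0.91 ± 0.10 in control shRNA cells (edgeR adjusted p = 0.00605 and 1.55e-06), and Erap1 in control shRNA cells (log2 fold change 0.23 ± 0.07 SE, edgeR adjusted p = 0.0165, up to 0.0871 without unstimulated replicate 3). Psmb8 changed by -0.53 ± 0.14 in Etv1 shRNA and -0.66 ± 0.13 in control shRNA cells, and Erap1 by -0.43 ± 0.07 and -0.51 ± 0.07 in those cells, all with edgeR adjusted p of at most 0.00488. Canx fell in control shRNA cells (log2 fold change -0.22 ± 0.06 SE, edgeR adjusted p = 0.00412). Tap1, Tapbp and Psmb9 fell there too, but each lost the call without IL-4 replicate 2 (adjusted p up to 0.146, 0.084 and 0.0783 over all single libraries left out). With control shRNA replicate 2 left out of every condition their changes were -0.56, -0.14 and -0.37, with adjusted p of 0.0626, 0.0605 and 0.0772.

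In Etv1 shRNA cells IL-4 also raised the class I genes Mr1 (log2 fold change 0.54 ± 0.16 SE, edgeR adjusted p = 0.0201) and H2-M3 (log2 fold change 0.30 ± 0.10 SE, edgeR adjusted p = 0.0497), but the Mr1 call was lost without unstimulated replicate 1 or 2 or IL-4 replicate 1 or 3 (adjusted p up to 0.083) and the H2-M3 call without any 1 of the 6 libraries (up to 0.137). In class I, PGE2 raised H2-D1 slightly under both hairpins, by 0.17 ± 0.06 in Etv1 shRNA cells (edgeR adjusted p = 0.0279, up to 0.0976 without IL-4 replicate 1 or 3 or PGE2 replicate 2 or 3) and 0.20 ± 0.06 in control shRNA cells (0.00838). With control shRNA replicate 2 left out of every condition, H2-K1 (0.22, edgeR adjusted p = 0.000605), H2-Q4 (0.26, 0.0202) and H2-Q6 (0.32, 0.0308) rose with PGE2 in control shRNA cells as well. Nlrc5 had 34.3, 27.9 and 40.8 CPM with IL-4 and PGE2, 43.3, 49.8 and 86.6 CPM with IL-4 and 58.8, 74.9 and 103 CPM without a stimulus in Etv1 shRNA cells. Nlrc5 in control shRNA cells was at 55, 66.5 and 51.2 CPM with IL-4 and PGE2, 86.1, 141 and 70.8 CPM with IL-4 and 97.6, 187 and 95.9 CPM without a stimulus. PGE2 libraries were below IL-4 libraries under both hairpins, but the spread was wide and the changes of -0.80 ± 0.38 in Etv1 shRNA and -0.79 ± 0.36 in control shRNA cells did not pass the test (edgeR adjusted p = 0.101 and 0.0744). The highest Nlrc5 values were those of control shRNA replicate 2 and Etv1 shRNA replicate 3, which also had the highest interferon response sums of their hairpins in each condition.

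**Figure D3:**
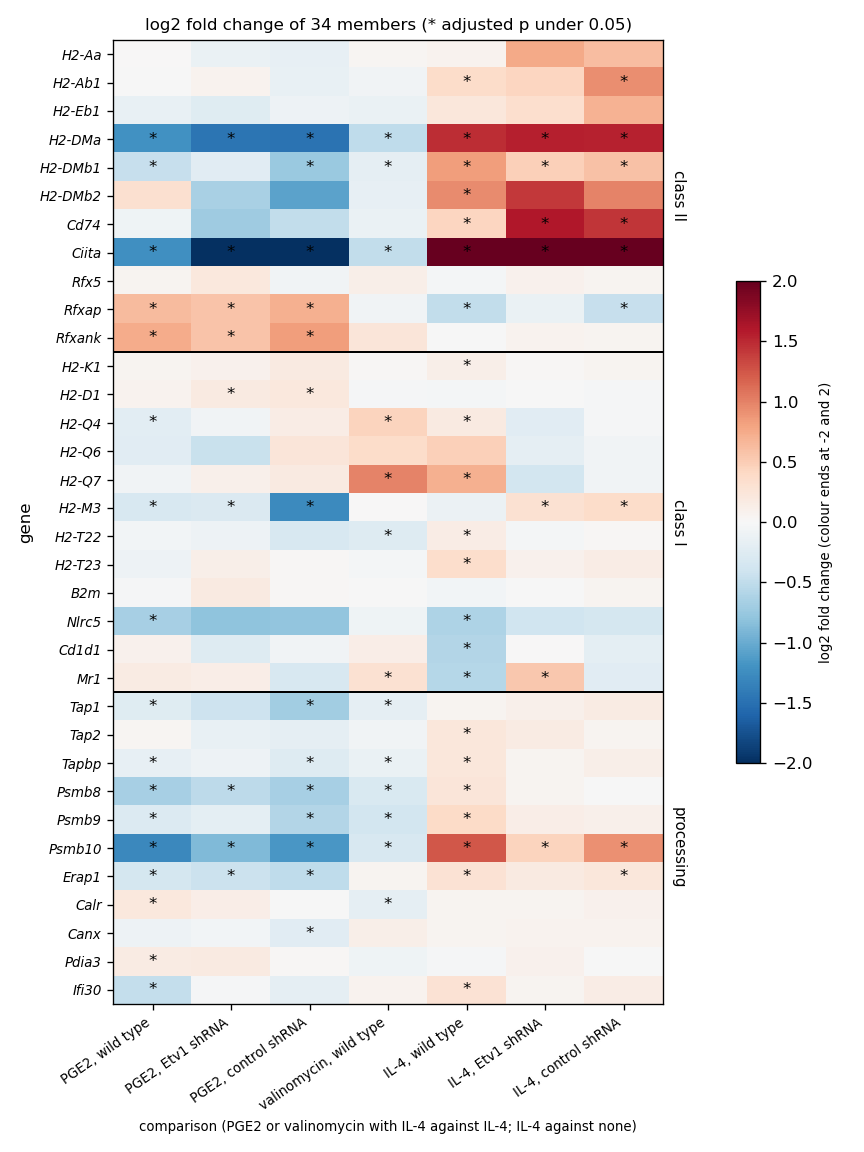
Log2 fold changes of the 34 tested genes (rows, by class) when PGE2 or valinomycin was added to IL-4 and for IL-4 against no stimulus (columns, by cells), with red for higher, blue for lower, colours ending at -2 and 2, and a star for edgeR adjusted p under 0.05. Ciita, H2-DMa and Psmb10 are red with IL-4 and blue with PGE2 in all 3 kinds of cells.

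Most class I and class II genes were lower in Etv1 shRNA than in control shRNA cells in each condition. With IL-4 and PGE2, 6 of 34 genes were higher and 15 lower, when 27.6% and 26.7% of all genes tested were. With IL-4, 4 were higher and 20 lower, when 25.4% and 25.6% of all genes were, and without a stimulus 4 were higher and 18 lower, when 24.9% and 26.8% were. Class I medians were -0.66 with IL-4 and PGE2, -0.75 with IL-4 and -0.70 without a stimulus, and class II medians -0.72, -0.73 and -0.56 in those conditions. Processing genes were divided, with medians of 0.09, -0.02 and -0.07.

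B2m had 1329, 1303 and 1419 CPM in Etv1 shRNA cells, against 2398, 1902 and 2269 CPM in control shRNA cells in the presence of IL-4 and PGE2. With IL-4, B2m had 1199.9, 1159 and 1217 CPM in Etv1 shRNA cells, against 2265, 1980.5 and 2232 CPM in control shRNA cells. Without a stimulus, B2m had 1186, 1152 and 1259 CPM in Etv1 shRNA cells, against 2109, 1909 and 2223 CPM in control shRNA cells. No Etv1 shRNA library reached a control shRNA library, with changes of -0.70 ± 0.08, -0.86 ± 0.08 and -0.79 ± 0.08 in those conditions (edgeR adjusted p of at most 3.43e-07). H2-K1 had 1176, 1156 and 1229 CPM in Etv1 shRNA cells, against 2010.1, 1585 and 1946 CPM in control shRNA cells in the presence of IL-4 and PGE2. With IL-4, H2-K1 had 1103, 1125 and 1128 CPM in Etv1 shRNA cells, against 1696, 1514 and 1700.5 CPM in control shRNA cells. Without a stimulus, H2-K1 had 1091, 1084 and 1137 CPM in Etv1 shRNA cells, against 1654, 1388 and 1673 CPM in control shRNA cells. Its groups were separated in each condition as well, with changes of -0.64 ± 0.08, -0.55 ± 0.08 and -0.51 ± 0.08 (edgeR adjusted p of at most 2.74e-05). H2-D1 was lower by a like amount (-0.53 ± 0.06, -0.50 ± 0.06 and -0.52 ± 0.06), as was H2-T23 (-0.68 ± 0.10, -0.78 ± 0.10 and -0.72 ± 0.10).

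Qa-2 genes had the largest hairpin differences of class I. H2-Q6 had 4.2, 3.86 and 4.15 CPM in Etv1 shRNA cells, against 37.6, 13.6 and 40 CPM in control shRNA cells in the presence of IL-4 and PGE2. With IL-4, H2-Q6 had 5.07, 4.6 and 6.98 CPM in Etv1 shRNA cells, against 33.9, 16.3 and 28.2 CPM in control shRNA cells. Without a stimulus, H2-Q6 had 7.53, 5.19 and 6.56 CPM in Etv1 shRNA cells, against 36.1, 15.2 and 31.7 CPM in control shRNA cells. Control shRNA replicate 2 had less than the other control libraries throughout, and Etv1 shRNA libraries were lower still, with changes of -2.93 ± 0.47, -2.25 ± 0.46 and -2.14 ± 0.45 (edgeR adjusted p of at most 0.00136). H2-Q7 showed the same pattern, with -2.42 ± 0.42, -2.36 ± 0.44 and -2.07 ± 0.41 (edgeR adjusted p of at most 0.000808). H2-Q4 changed by -1.19 ± 0.12, -0.96 ± 0.12 and -0.76 ± 0.12 (edgeR adjusted p of at most 4.2e-05). The kappa B letters printed above stand in H2-Q6, H2-Q7, H2-K1 and H2-D1, whose hairpin differences ran from -0.50 ± 0.06 for H2-D1 with IL-4 to -2.93 ± 0.47 for H2-Q6 with PGE2. These exact letters do not occur in the H2-Q4 window, which reads ggggatttcc at the same place. A near match is thus present in H2-Q4, and only the exact one is absent. H2-M3 was lower with IL-4 (-0.92 ± 0.10) and without a stimulus (-0.85 ± 0.10), with edgeR adjusted p of at most 7.13e-07. Mr1 was higher in the presence of PGE2 (log2 fold change 0.74 ± 0.15 SE, edgeR adjusted p = 0.000372) and lower without a stimulus (log2 fold change -0.48 ± 0.15 SE, edgeR adjusted p = 0.0133), the call without a stimulus being lost without Etv1 shRNA replicate 1 or control shRNA replicate 1 or 3 (adjusted p up to 0.0565).

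**Figure D4:**
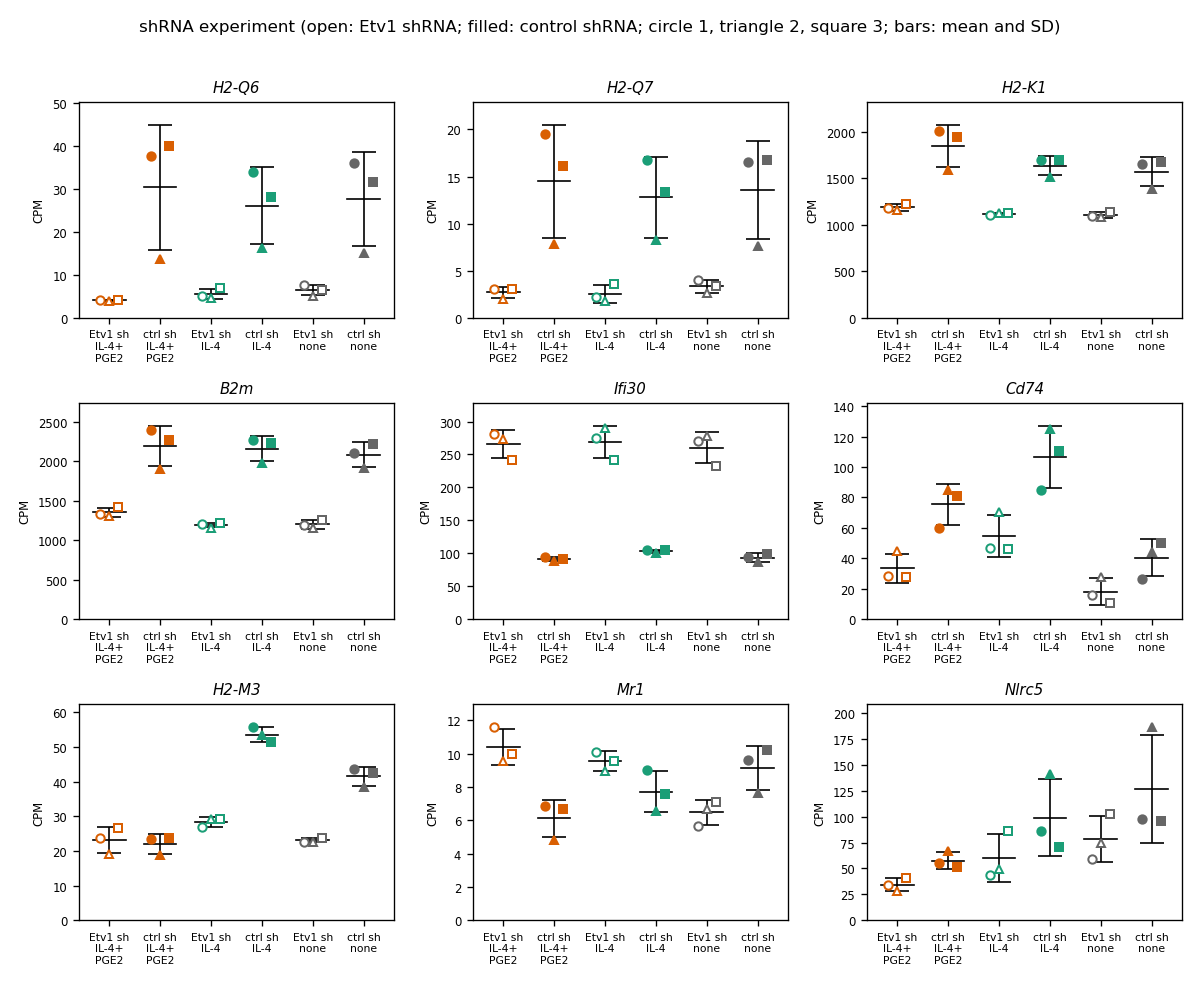
CPM of 9 genes in each shRNA library, Etv1 shRNA (open) left of control shRNA (filled) in each condition, with bars for the mean and SD of 3 libraries. B2m and H2-K1 are lower and Ifi30 higher in all Etv1 shRNA libraries, and H2-Q6 of control shRNA replicate 2 (triangle) lies between the other control shRNA libraries and the Etv1 shRNA libraries.

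Cd74 and the class II chains were lower with the Etv1 hairpin, at low levels. Cd74 had 28.5, 44.5 and 27.4 CPM in Etv1 shRNA cells, against 60.2, 85.1 and 80.7 CPM in control shRNA cells in the presence of IL-4 and PGE2. With IL-4, Cd74 had 46.6, 70.6 and 46.3 CPM in Etv1 shRNA cells, against 84.7, 125 and 111 CPM in control shRNA cells. Without a stimulus, Cd74 had 16, 27.6 and 10.3 CPM in Etv1 shRNA cells, against 26.5, 44.2 and 50 CPM in control shRNA cells. The groups overlapped without a stimulus and not otherwise, with changes of -1.19 ± 0.34, -0.96 ± 0.32 and -1.13 ± 0.37 (edgeR adjusted p = 0.00938, 0.025 and 0.0212). With IL-4 and PGE2, H2-Eb1 had 2.86, 4.77 and 1.64 CPM in Etv1 shRNA cells, against 6.22, 6.92 and 8.59 CPM in control shRNA cells. It was lower in each condition, with changes of -1.30 ± 0.31, -1.17 ± 0.31 and -0.81 ± 0.33. H2-Ab1 changed by -0.87 ± 0.28, -1.10 ± 0.29 and -0.60 ± 0.31, and passed the test with IL-4, with or without PGE2.

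Several of these calls rested on single libraries. Leaving out Etv1 shRNA replicate 1 or 3 or control shRNA replicate 2 or 3 took the calls of Cd74 with IL-4 (adjusted p up to 0.0842) and without a stimulus (up to 0.0923), and those of H2-Aa in all 3 conditions (up to 0.135). H2-Eb1 without a stimulus was lost without Etv1 shRNA replicate 1 or 3 or control shRNA replicate 1 or 3 (up to 0.155), and H2-Ab1 with PGE2 without Etv1 shRNA replicate 1 or 3 or control shRNA replicate 3 (up to 0.0696). With control shRNA replicate 2 left out of every condition, the differences without a stimulus were -1.01 for Cd74, -1.06 for H2-Aa and -0.93 for H2-Eb1, with adjusted p of 0.0891, 0.145 and 0.0505. With IL-4 the calls of Cd74 (adjusted p = 0.0884 by edgeR) and H2-Aa (0.121) were lost in that fit, and where PGE2 was present those of H2-Aa (0.0563) and H2-Ab1 (0.0548). Ciita, in contrast, passed the test in the presence of PGE2 (-2.0, edgeR adjusted p = 0.0267), against -1.89 ± 0.81 and edgeR adjusted p = 0.0556 with all libraries.

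The H2-DM chains went apart. With IL-4, H2-DMa had 14.5, 15.3 and 15.3 CPM in Etv1 shRNA cells, against 25.3, 25.9 and 23.6 CPM in control shRNA cells. It was lower in each condition, with changes of -0.72 ± 0.12 with IL-4 and PGE2, -0.73 ± 0.10 with IL-4 and -0.75 ± 0.12 without a stimulus (edgeR adjusted p of at most 3.19e-05). H2-DMb1 had 23, 21 and 24 CPM in Etv1 shRNA cells, against 12.9, 14.4 and 12.8 CPM in control shRNA cells in the presence of IL-4 and PGE2. With IL-4, H2-DMb1 had 25.4, 27.8 and 26.8 CPM in Etv1 shRNA cells, against 20.3, 23.9 and 22.4 CPM in control shRNA cells. Without a stimulus, H2-DMb1 had 19.6, 19.8 and 18 CPM in Etv1 shRNA cells, against 13, 14.3 and 17.4 CPM in control shRNA cells. All Etv1 shRNA libraries were above the control shRNA libraries of their condition, by 0.77 ± 0.10, 0.27 ± 0.10 and 0.37 ± 0.10 (edgeR adjusted p = 3.34e-06, 0.0291 and 0.00504). The call with IL-4 was lost without Etv1 shRNA replicate 2 or 3 or control shRNA replicate 1 or 3 (adjusted p up to 0.183). Ciita was lower with IL-4 (log2 fold change -1.54 ± 0.42 SE, edgeR adjusted p = 0.0043), and Rfx5 was lower with IL-4 (-0.42 ± 0.11) and without a stimulus (-0.45 ± 0.11), with edgeR adjusted p of at most 0.00275. Rfxank was lower in each condition, most with PGE2 (-0.59 ± 0.11, edgeR adjusted p = 0.000125). The Rfxank call with IL-4 was lost without Etv1 shRNA replicate 1 or 2 or control shRNA replicate 1 or 3 (adjusted p up to 0.143), and without a stimulus without Etv1 shRNA replicate 1 or control shRNA replicate 2 or 3 (up to 0.118). Rfxap was lower without a stimulus (-0.26 ± 0.11), a call lost without any Etv1 shRNA library or control shRNA replicate 2 or 3 (up to 0.15). Both calls without a stimulus were also lost with control shRNA replicate 2 left out of every condition (edgeR adjusted p = 0.0618 for Rfxank and 0.117 for Rfxap).

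Processing genes did not all differ the same way. Ifi30 had 282, 274 and 242 CPM in Etv1 shRNA cells, against 94.4, 87.6 and 91.3 CPM in control shRNA cells in the presence of IL-4 and PGE2. With IL-4, Ifi30 had 275, 290.0 and 242 CPM in Etv1 shRNA cells, against 104, 99.7 and 104 CPM in control shRNA cells. Without a stimulus, Ifi30 had 270.2, 278 and 233 CPM in Etv1 shRNA cells, against 93.7, 86.2 and 99.3 CPM in control shRNA cells. It was higher with the Etv1 hairpin in every library, by 1.54 ± 0.08, 1.39 ± 0.08 and 1.48 ± 0.08 (edgeR adjusted p of at most 4.37e-11). Canx (0.62 ± 0.06, 0.46 ± 0.06 and 0.46 ± 0.06) and Pdia3 (0.68 ± 0.07, 0.52 ± 0.07 and 0.44 ± 0.07) were higher in each condition too. With IL-4 and PGE2, Psmb8 had 52.6, 48.1 and 58.3 CPM in Etv1 shRNA cells, against 90, 91.6 and 83.1 CPM in control shRNA cells. It was lower in each condition, with changes of -0.73 ± 0.14, -0.86 ± 0.13 and -0.93 ± 0.13 (edgeR adjusted p of at most 0.000311). Psmb10 was lower with IL-4 (-0.58 ± 0.10, edgeR adjusted p = 0.000139) and with PGE2 (-0.30 ± 0.11, 0.0241). The call with PGE2 was lost without Etv1 shRNA replicate 1 or 2 or control shRNA replicate 1 or 3 (up to 0.114). Tapbp was lower with IL-4 (-0.33 ± 0.08) and without a stimulus (-0.27 ± 0.08, with adjusted p up to 0.087 without Etv1 shRNA replicate 1 or control shRNA replicate 2), and Tap1 with IL-4 (-0.70 ± 0.25, up to 0.154 without Etv1 shRNA replicate 1 or 2 or control shRNA replicate 2). With control shRNA replicate 2 left out of every condition, Tap1 had an edgeR adjusted p of 0.0761 with IL-4, and Tapbp passed the test with PGE2 (-0.24, edgeR adjusted p = 0.00147).

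**Figure D5:**
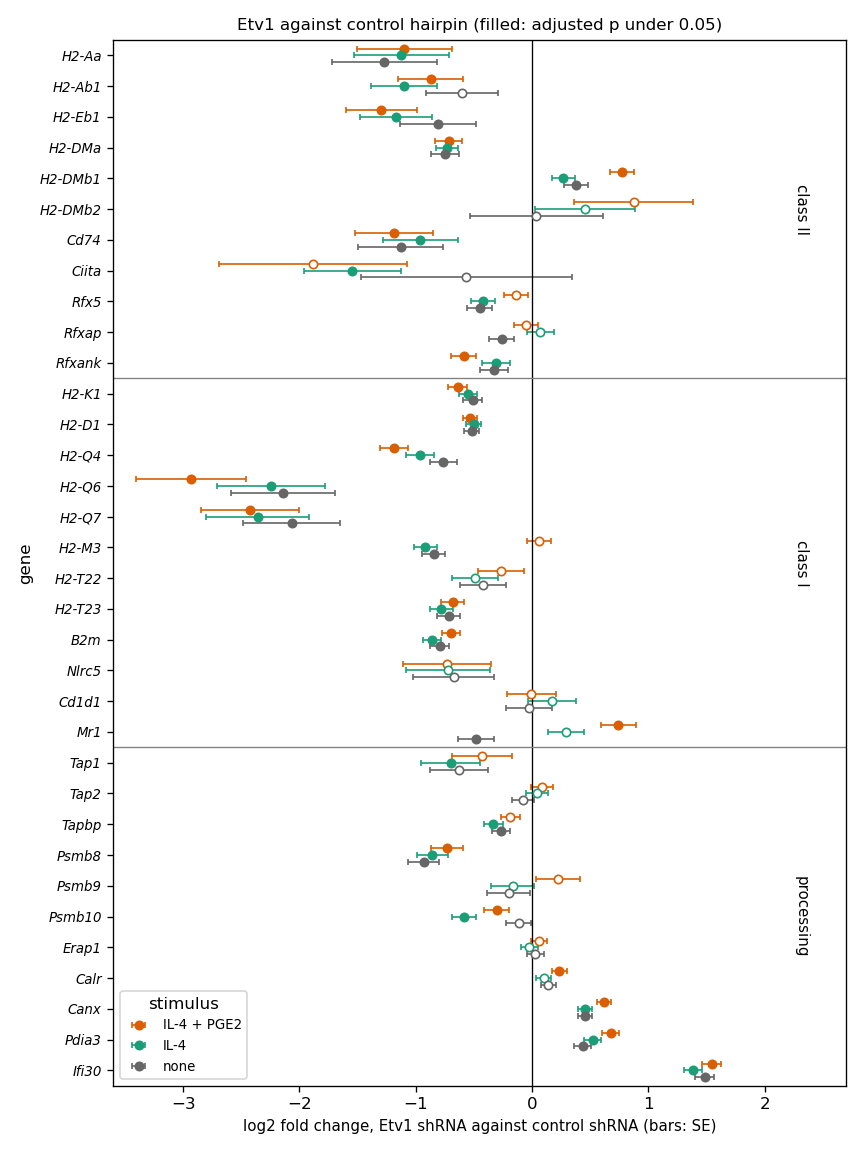
Log2 fold changes with SE of Etv1 shRNA against control shRNA for the 34 tested genes in each condition, by class, with filled points for edgeR adjusted p under 0.05. B2m, H2-K1, H2-D1, H2-T23, H2-Q4, H2-Q6 and H2-Q7 lie below 0, while Ifi30, Canx, Pdia3 and H2-DMb1 lie above 0 in each condition.

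Marker genes differed between the hairpins as well. Macrophage markers summed to 10777, 10329 and 10942 CPM in Etv1 shRNA cells, against 20857, 22481 and 20684 CPM in control shRNA cells, with IL-4 and PGE2, and the hairpins did not overlap in the other conditions. Of the 10 markers, 1 was higher and 6 lower with IL-4 and PGE2, when 27.6% and 26.7% of all genes tested were. With IL-4 1 was higher and 8 lower, when 25.4% and 25.6% were. Without a stimulus 1 was higher and 8 lower too, when 24.9% and 26.8% were. None of the 10 was at 0. Interferon response genes summed to 1562, 1402 and 1848 CPM in Etv1 shRNA cells, against 2912, 3439 and 2748 CPM in control shRNA cells, with IL-4 and PGE2. With IL-4 the sums were 1544, 1786 and 2943 CPM in Etv1 shRNA cells, against 2917, 5289 and 2496 CPM in control shRNA cells, and without a stimulus 1732, 2499 and 3415 CPM in Etv1 shRNA cells against 2915, 6732 and 3509 CPM in control shRNA cells. Of the 27 genes, 8, 8 and 5 were lower in those conditions, when 26.7%, 25.6% and 26.8% of all genes tested were, so these counts lie near or under the share over all genes. The changes nevertheless leaned 1 way: 27, 26 and 26 of the 27 were negative, called or not. Their medians were -0.76, -0.75 and -0.74. In each condition 0 were higher by edgeR, also at an unadjusted p under 0.05, and by DESeq2. Bst2, which tethers virus particles, was lower in each (-1.09 ± 0.16, -1.22 ± 0.16 and -1.23 ± 0.16). Dendritic cell markers were lower in Etv1 shRNA cells with IL-4, at 44.6, 52 and 53.8 CPM in sum, against 127, 137 and 139 CPM in control shRNA cells. Of 4 tested, 3 were lower there by edgeR, with changes of -1.32 ± 0.23 for Itgax, -2.32 ± 0.20 for Batf3 and -1.27 ± 0.30 for Zbtb46. With IL-4 and PGE2, 1 of the 4 was lower (Batf3, -1.45 ± 0.49), and the hairpins' sums overlapped in that condition and without a stimulus. The 8 B cell markers summed to 0.828, 1.66 and 1.3 CPM in Etv1 shRNA cells with IL-4, against 4.76, 4.63 and 4.51 CPM in control shRNA cells. Both B cell markers tested, Cd79b and Cd22, were lower in each condition, with a median change of -1.64 with IL-4 and PGE2, -2.38 with IL-4 and -2.22 without a stimulus, and with IL-4 Pax5, Ebf1 and Blk were at 0 under both hairpins. The part of any of these differences in the class I and class II results was not tested.

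Differences between effects were tested directly. The IL-4 effect differed between hairpins for 1 of 34 genes, when 2.71% of all genes tested had a higher and 1.81% a lower effect in Etv1 shRNA cells. That gene was Mr1, which had 11.6, 9.55 and 10 CPM with IL-4 and PGE2, 10.1, 8.93 and 9.58 CPM with IL-4 and 5.65, 6.7 and 7.11 CPM without a stimulus in Etv1 shRNA cells. Mr1 in control shRNA cells was at 6.83, 4.81 and 6.68 CPM with IL-4 and PGE2, 9.0, 6.55 and 7.55 CPM with IL-4 and 9.64, 7.66 and 10.2 CPM without a stimulus. IL-4 changed it by 0.54 ± 0.16 in Etv1 shRNA and -0.23 ± 0.15 in control shRNA cells, a difference of 0.77 ± 0.22 (edgeR adjusted p = 0.0482, up to 0.126 with single libraries left out). The call was kept without unstimulated control shRNA replicate 2 or IL-4 control shRNA replicate 1 and lost without each of the other 10 libraries, and with median-ratio scaling the adjusted p was 0.0503. For Psmb10 the difference of -0.47 ± 0.15 did not pass the test (edgeR adjusted p = 0.087), but passed with control shRNA replicate 2 left out of every condition (-0.54, edgeR adjusted p = 0.0109) and by DESeq2 (-0.47, adjusted p = 0.0441).

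The PGE2 effect differed between hairpins for 2 of 34 genes, when 6.03% of all genes tested had a higher and 5.58% a lower effect in Etv1 shRNA cells. H2-M3 had 23.6, 19.1 and 26.5 CPM with IL-4 and PGE2, 26.8, 29.1 and 29.3 CPM with IL-4 and 22.7, 22.7 and 23.8 CPM without a stimulus in Etv1 shRNA cells. In control shRNA cells it had 23.5, 18.8 and 23.6 CPM with IL-4 and PGE2, 55.8, 53.4 and 51.5 CPM with IL-4 and 43.7, 38.4 and 42.5 CPM without a stimulus. The hairpins overlapped with PGE2 and were apart otherwise. PGE2 changed H2-M3 by -0.30 ± 0.10 in Etv1 shRNA and -1.27 ± 0.10 in control shRNA cells (difference 0.98 ± 0.14, edgeR adjusted p = 0.00015). The PGE2 call in Etv1 shRNA cells was lost without IL-4 replicate 2 or 3 or PGE2 replicate 2 (adjusted p up to 0.139). For H2-DMb1 the PGE2 changes were -0.23 ± 0.10 in Etv1 shRNA and -0.73 ± 0.10 in control shRNA cells (difference 0.50 ± 0.14, edgeR adjusted p = 0.0257, up to 0.0838 with single libraries left out). That call was lost without replicate 1 of the Etv1 shRNA IL-4 group, replicate 1 or 3 of either PGE2 group, or replicate 2 or 3 of the control shRNA IL-4 group. For the other 32 genes the difference did not pass the test, Ciita with -0.34 ± 0.86 and H2-DMa with 0.02 ± 0.16 among them. With control shRNA replicate 2 left out of every condition H2-Q6 passed (-0.78, edgeR adjusted p = 0.0199), against -0.68 ± 0.70 and edgeR adjusted p = 0.611 with all libraries. All of these comparisons share the IL-4 groups.

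Control shRNA and wild type cells were compared in a joint model of all 30 libraries, over 13358 genes. The IL-4 effect was higher in control shRNA cells for 5.17% of genes and lower for 4.01%, and the PGE2 effect higher for 8.52% and lower for 10.5%. Of the 34 genes, H2-M3 passed in both and no other gene in either. This was by edgeR with all libraries, TMM scaling, the count filter and no replicate block. Its IL-4 change was 0.37 ± 0.09 in control shRNA and -0.11 ± 0.08 in wild type cells (difference 0.50 ± 0.13, edgeR adjusted p = 0.00855), and its PGE2 change -1.27 ± 0.10 in control shRNA and -0.32 ± 0.08 in wild type cells (difference -0.97 ± 0.13, 3.12e-06). For Ciita the PGE2 difference was -1.26 ± 0.46, which did not pass the test (edgeR adjusted p = 0.0542), and for Cd74 the IL-4 difference was 1.02 ± 0.35 (0.0732).

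More genes passed in other fits. With no count filter, the IL-4 difference also passed for Cd74 (1.0, edgeR adjusted p = 1.49e-20), H2-Aa (0.54, 0.00278), H2-Ab1 (0.56, 0.00561), H2-Q7 (-0.77, 0.00594) and Psmb10 (-0.34, 0.0226). The PGE2 difference then passed for Ciita (-1.18, edgeR adjusted p = 0.0227), Cd74 (-0.35, 0.00598), Tap1 (-0.40, 0.00199), H2-Q4 (0.41, 0.00124) and Ifi30 (0.35, 0.00517). The IL-4 difference of Cd74 was nearly the same with the filter and no replicate block, where it did not pass. Its far smaller p with no filter therefore reflects a smaller estimated error, although the control shRNA libraries of Cd74 varied widely. Calls made only with no filter depend on that estimate of the spread and should not be read as firm. For Ifi30 the PGE2 difference passed with median-ratio scaling (0.32, edgeR adjusted p = 0.0393) and by DESeq2 (0.32, adjusted p = 0.0425) as well, against 0.28 ± 0.11 and edgeR adjusted p = 0.0677 with the filter and TMM scaling. With control shRNA replicate 2 left out of every condition, the IL-4 difference passed for H2-Q7 (-0.80, edgeR adjusted p = 0.0323) and the PGE2 difference for H2-Q4 (0.44, 0.0104). With the count filter and the replicate number as a block, the IL-4 difference also passed for Cd74 (1.03, edgeR adjusted p = 0.00573) and H2-Q7 (-0.75, 0.0206). The PGE2 difference then also passed for Ciita (-1.25, edgeR adjusted p = 0.0209), Calr (-0.24, 0.00631), Ifi30 (0.29, 0.0159), Mr1 (-0.51, 0.0291) and H2-DMa (-0.29, 0.0463).

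Beyond the 35 genes, 42 further genes of the pathway were counted, of which 38 were tested in wild type and 37 in shRNA cells. With PGE2 in wild type cells 8 rose and 15 fell, when 29.9% and 29.5% of all genes tested did. The costimulatory ligands Cd86 (4.08 ± 0.09) and Cd80 (2.77 ± 0.10) rose, while the costimulatory receptor Cd40 (-2.06 ± 0.12) and the transcription factor Irf8 (-0.61 ± 0.05) fell, all with edgeR adjusted p of at most 3.61e-10. With valinomycin 6 rose and 10 fell, when 19.4% and 18.9% of all genes did, with the class I gene H2-Q10 (1.53 ± 0.12) and the interferon regulatory factor Irf1 (1.03 ± 0.06) among the risers. With IL-4, 16 rose and 9 fell, when 24% and 22.4% of all genes did, led by adjusted p by Hfe (0.99 ± 0.05), a class I-like regulator of iron uptake, and Cd40 (2.40 ± 0.13).

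In shRNA cells PGE2 raised 5 and lowered 13 of the 37 in Etv1 shRNA cells, when 24.6% and 22.8% of all genes tested rose and fell, and raised 6 and lowered 18 in control shRNA cells, when 29.3% and 30.1% did. Cd86 rose by 2.60 ± 0.17 in Etv1 shRNA and 4.24 ± 0.16 in control shRNA cells, and Cd80 by 1.81 ± 0.09 and 2.79 ± 0.09 in those cells. Both effects were smaller in Etv1 shRNA cells (difference -1.64 ± 0.24, edgeR adjusted p = 0.000405, for Cd86, and -0.98 ± 0.13, 5.96e-05, for Cd80). Etv1 shRNA against control shRNA gave 8 higher and 18 lower genes where PGE2 was present (27.6% and 26.7% of all genes tested), 7 higher and 21 lower with IL-4 (25.4% and 25.6% of all), and 4 higher and 17 lower without a stimulus (24.9% and 26.8% of all). Irf8 was lower in each condition (-1.13 ± 0.08, -1.60 ± 0.07 and -2.13 ± 0.07), as was Sec61a1, a subunit of the endoplasmic reticulum translocon (-0.76 ± 0.05, -1.23 ± 0.05 and -1.05 ± 0.05).

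Of the 27 interferon response genes, 4 rose and 19 fell with IL-4 in wild type cells, when 24% and 22.4% of all genes tested did. With PGE2 added 10 rose and 6 fell, when 29.9% and 29.5% did, and with valinomycin added 8 fell, when 18.9% did. Irf7 (1.75 ± 0.06) and Ddx58 (0.93 ± 0.06) led the rise with PGE2 by adjusted p (at most 5.03e-12 by edgeR), while Nlrc5, Psmb8, Psmb10 and Tap1 fell in that comparison. The shRNA libraries did not show this rise. Under the control hairpin PGE2 raised 1 of the 27 and lowered 5, when 29.3% and 30.1% of all genes tested rose and fell. There 24 of the changes were negative, with a median of -0.42. Under the Etv1 hairpin 1 fell, when 22.8% did, and 26 were negative, with a median of -0.40. For the PGE2 effect, control shRNA minus wild type was negative for 25 of the 27 (median -0.78), and 1 passed the test.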

How the data were processed

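The deposited files hold raw read counts per Ensembl gene, 1 table per library, made by the authors with STAR and featureCounts on GRCm38, per the submitters' processing notes, which name 2 further tools, DESeq2 and deepTools; no output of these entered the work. Per the labels' protocols, libraries were poly(A) selected with a stranded kit. The strand setting and the handling of reads that match several genes are not given in the sources used here. Genes that share sequence or overlap are thus uncertain. Gene names came from GENCODE M21, which matched 42548 of 43629 IDs, and the others held 0.153% of reads. The 35 genes and all lists were chosen with earlier results of these data known.

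Wild type and shRNA libraries were fitted separately with edgeR 4.0.16 in R 4.3.3 (TMM scaling, default count filter, robust quasi-likelihood test), and the control shRNA against wild type differences in 1 joint fit. p values were adjusted by Benjamini-Hochberg over all genes tested and called under 0.05. The 12 wild type libraries had a median of 12216329.5 counts and the 18 shRNA libraries 10303938. No source ties the replicates to separate mice or cultures, and p values therefore measure only the spread between these libraries, which may be technical. Pairs of libraries of the same group were compared with counting noise, which alone gives a chi-square per degree of freedom of about 1. The lowest value was 1.24 in wild type and 2.27 in shRNA cells. The closest wild type pair thus differed by little more than counting noise. A group total of 3 counts was taken as the floor of detection. Per-library values were given for up to 4 genes per class and comparison with the smallest adjusted p, and always for Ciita, Nlrc5, Cd74, H2-Ab1, H2-K1, B2m and Etv1. Other genes are named where their calls depended on a library or where a group of genes was described.

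Alternatives were DESeq2 1.42.0, its median-ratio scaling in edgeR, no count filter, the replicate number as a block, each library left out in turn, and, chosen after seeing the data, control shRNA replicate 2 left out of every condition. The scripts were tested on simulated data. Promoter sequences were RefSeq's, and the shared stretches are runs of 50 bases of a gene's transcripts that also occur in another gene's.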

Additional observations from a re-analysis of the deposited data

Results flagged for a closer look

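A stimulus effect that differed between 2 kinds of cells, by a test of the difference itself, was found 5 times among the 34 genes, 3 of them for H2-M3. The PGE2 effect on H2-M3 in Etv1 shRNA minus that in control shRNA cells was 0.98 ± 0.14 (edgeR adjusted p = 0.00015), and it was called without each of the 12 libraries in turn. In control shRNA minus wild type cells, the PGE2 effect on H2-M3 differed by -0.97 ± 0.13 (edgeR adjusted p = 3.12e-06) and the IL-4 effect by 0.50 ± 0.13 (edgeR adjusted p = 0.00855). The control shRNA IL-4 group enters all 3 differences, with 55.8, 53.4 and 51.5 CPM. The other flagged results were smaller than these relative to their error. For H2-DMb1 the PGE2 effect in Etv1 shRNA minus control shRNA cells was 0.50 ± 0.14 (edgeR adjusted p = 0.0257), called in 5 of 12 fits with 1 library left out. For Mr1 the IL-4 effect in Etv1 shRNA minus control shRNA cells was 0.77 ± 0.22 (edgeR adjusted p = 0.0482), called in 2 of 12 such fits.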

How the results depend on the processing

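Over the 544 pairs of a gene and a comparison, no change turned its direction while called: DESeq2 added 8 calls and took 11, median-ratio scaling added 4 and took 5, no count filter added 14 and took 13, and leaving out control shRNA replicate 2 throughout added 9 and took 14 of 306. Counts of called genes stayed within 1.5 times except as follows. For valinomycin in wild type cells, 13 genes were called and between 8 and 12 with 1 library left out, the lowest without valinomycin replicate 3. For the IL-4 effect between hairpins, 1 gene was called, against 0 with median-ratio scaling, 2 with DESeq2, 0 to 2 with 1 library left out and 2 without control shRNA replicate 2. For the PGE2 effect between hairpins, 2 were called, 1 to 3 with 1 library left out and 3 without control shRNA replicate 2. For the IL-4 effect in control shRNA against wild type cells, 1 was called, against 6 with no filter, 2 without control shRNA replicate 2 and 1 to 2 with 1 library left out. For the PGE2 effect there, 1 was called, against 2 with median-ratio scaling, 6 with no filter, 2 with DESeq2, 2 without control shRNA replicate 2 and 1 to 4 with 1 library left out. The causes were not tested.

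Same-numbered libraries deviated together over a correlation of 0.1 in 5 of 18 pairs of groups and numbers in wild type and 34 of 45 in shRNA cells. Median correlations were 0.15 for same-numbered and -0.09 for other pairs in shRNA cells, and 0.04 and -0.01 in wild type cells. Of the libraries, 9 of 12 in wild type and 17 of 18 in shRNA cells correlated best with their own number. No source says what the numbers stand for, and the main tests did not use them as pairing. In shRNA cells the numbers thus carried a shared deviation, which the main tests left in the spread. With the replicate block, 14 genes were called for PGE2 in Etv1 shRNA cells against 9 without it, Cd74 among those added (-0.71, adjusted p = 0.0262), 3 for the IL-4 and 6 for the PGE2 effect in control shRNA against wild type cells, with Cd74 (1.03, 0.00573) added for IL-4 and Ciita (-1.25, 0.0209) for PGE2, and 24 calls were added in all and none taken. Depth limited Ciita in shRNA cells, at 5 to 102 counts per group, and H2-Oa.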
